A study of Mus musculus with 2 samples.

Results

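The enzymes that turn glucose into pyruvate and lactate, with subunits of pyruvate dehydrogenase and its kinases, were read in mouse hippocampus as 35 genes. They were chosen by gene symbol, matched exactly in the deposited transcript tables, and cover 278 transcripts. One symbol, Aldoa, stood for 2 gene identifiers, so the 35 symbols were 36 of the 55536 annotated genes. The tissue was hippocampus, labelled as a layer of it, from B6CASTF1/J females aged 25 days, a hybrid of C57BL/6J and the wild-derived CAST/EiJ. By the labels all samples form 1 group, with replicates 1 and 2 from separate biosamples that share a donor entry, and 300 ng of total RNA with ERCC spike-ins went into each library. There is no treatment, mutation or second tissue, so levels are described and the libraries are then set against each other. The labels do not say that the replicates are separate animals, so the spread between them may be technical.

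In glycolysis hexokinase traps glucose as a phosphate, phosphofructokinase commits it to breakdown, aldolase splits it, and the steps that follow yield ATP and pyruvate. Lactate dehydrogenase interconverts pyruvate and lactate, and the pyruvate dehydrogenase complex, held in check by its kinases, feeds pyruvate to the citric acid cycle. Most steps can be run by several isozymes, encoded by separate genes and used to different degrees by neurons, astrocytes, muscle, liver and germ cells. In brain, astrocytes are known to release lactate that neurons can burn.

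Levels are in TPM, a gene's share of the reads corrected for its length and scaled to a fixed total, from the deposited gene tables, called the first quantification here. Where a value has an SD it is the mean of both libraries (n = 2), and where 2 values stand side by side they are replicate 1 and replicate 2. A second deposited quantification of the same libraries, made from reads on transcripts, is given beside them where its order or size matters. Its TPM have another denominator, so ratios between the quantifications were taken after both were rescaled over nuclear protein-coding genes. Tissue RNA cannot tell fewer cells of a type from less RNA per cell.

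Of the 35 genes, 30 reached 1 TPM in both libraries, and 30 did in the second quantification. Over all 22015 nuclear protein-coding genes 57.6% did so. The genes together summed to 5674 TPM in replicate 1 and 5894 TPM in replicate 2. That was 1.31% and 1.40% of nuclear protein-coding TPM, while the genes are 0.159% of the nuclear protein-coding genes. In the second quantification the shares were 1.62% and 1.75%. Aldoa, at rank 10 in replicate 1 and rank 7 in replicate 2, was the highest of them in the first quantification. In the second Gapdh stood at rank 1 of all nuclear protein-coding genes in both libraries, against ranks 13 and 8 in the first.

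**Figure D1:**
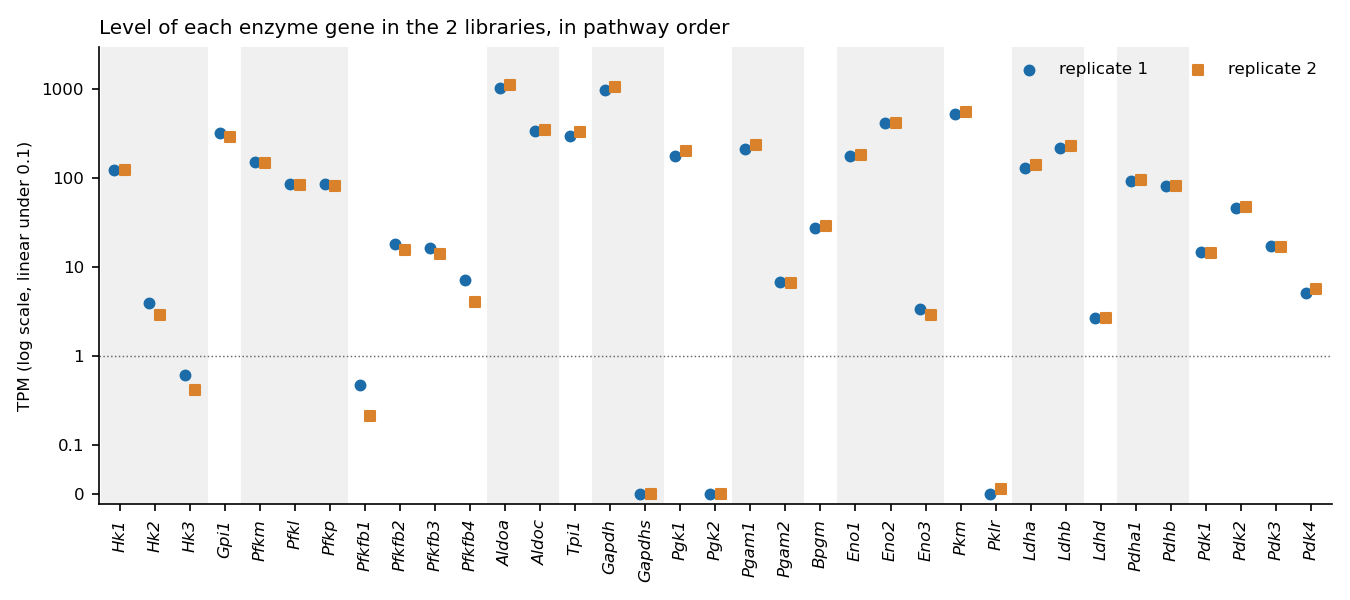
Level in TPM of each of the 35 genes in replicate 1 (circles) and replicate 2 (squares), on an axis that is logarithmic above 0.1 TPM and linear below it, with genes in pathway order and shading by step. The dotted line marks 1 TPM, and 5 genes, Hk3, Pfkfb1, Gapdhs, Pgk2 and Pklr, lie under it in both libraries, while Aldoa and Gapdh stand highest.

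At the entry of the pathway, Hk1 (chromosome 10, 62268855 to 62379908, minus strand), the hexokinase of brain and red cells, had 125 TPM in replicate 1 and 123 TPM in replicate 2. It held 96.9 ± 0.636% of the hexokinase TPM, or 97.1% in the second quantification. Hk2, the insulin-responsive hexokinase of muscle and fat, had 3.93 and 2.89 TPM. Hk3, a hexokinase of white blood cells, had 0.61 and 0.41 TPM from 33 and 35 expected counts, and it lies across Unc5a on the other strand, at 61.6 and 58.1 TPM. Gpi1, which isomerises glucose phosphate to fructose phosphate, had 323 and 295 TPM. Thus a single hexokinase gene carried nearly all hexokinase RNA in both libraries, and the levels of the 3 did not overlap.

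Phosphofructokinase RNA was shared among 3 genes. Pfkm (chromosome 15, 98092589 to 98132451), the muscle-type subunit, had 151 and 150.4 TPM, or 47.1 ± 0.671% of the step. Pfkl, the liver-type subunit, had 86.8 and 83.7 TPM. Pfkp, the platelet-type subunit, had 86.5 and 82.0 TPM. Pfkm was above both others in each library and each quantification, by 1.77 ± 0.0370 times over Pfkl, whereas Pfkl and Pfkp differed by less than their SDs and changed places in replicate 2 of the second quantification. Active phosphofructokinase is a tetramer of these subunits, so shares of RNA are not shares of an enzyme form.

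The PFKFB genes encode enzymes that make and remove a fructose bisphosphate that activates phosphofructokinase, and were far lower. Pfkfb2, the heart-type enzyme, had 18.5 and 15.7 TPM, and Pfkfb3, the form with the strongest kinase activity, had 16.2 and 14.1 TPM. Their order did not hold. Their levels lay within the sum of their SDs, Pfkfb2 had 48.8% and Pfkfb3 36.7% of the step in the second quantification, and by protein-coding transcripts alone Pfkfb3 led with 46.3% against 43.7% for Pfkfb2. Pfkfb4, known from testis and tumour cells, had 7.20 and 4.05 TPM. Pfkfb1, the liver enzyme, had 0.47 and 0.21 TPM from 12 expected counts in each library.

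Hk1 RNA differs at its 5′ end, where separate first exons give the protein separate starts. The coding bases that distinguish the 3 main transcripts are shown because the start decides whether hexokinase can dock on mitochondria. Hk1-202 opens with the exon of the brain and widespread form, whose first residues bind mitochondria. Hk1-205 opens with the exon known from red cell precursors, and Hk1-201 with exons known from male germ cells, and both lack that stretch. Capitals mark the start codon. The sequences are the mm10 minus strand, read from the GENCODE M21 transcripts, at chr10:62340013-62340075 for Hk1-202, chr10:62342501-62342560 for Hk1-205, and chr10:62358336-62358362 and chr10:62353058-62353105 for the first and next coding exon of Hk1-201.
Hk1-202: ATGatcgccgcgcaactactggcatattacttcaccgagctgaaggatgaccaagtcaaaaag
Hk1-205: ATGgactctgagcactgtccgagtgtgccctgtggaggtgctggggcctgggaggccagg
Hk1-201 first exon: ATGggacagaactgccagcgaggacag
Hk1-201 next exon: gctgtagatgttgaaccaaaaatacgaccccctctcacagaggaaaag

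The quantifications did not give these starts the same order. In the first, Hk1-202, with the mitochondrial start, held 54.3% of Hk1 TPM in replicate 1 and 63.7% in replicate 2. Hk1-201 held 31.2% and 22.1%, and Hk1-205 13.7% and 13.6%. In the second, Hk1-205 led with 38.0 ± 0.582%, before Hk1-201 at 33.0 ± 1.40% and Hk1-202 at 28.2 ± 1.89%. The annotated transcripts also end differently, with 1054 bases after the stop codon in Hk1-202, 801 in Hk1-201 and 0 in Hk1-205. Whether that difference bears on the assignment of reads was not tested. Among red blood cell markers 3 of 5 reached 1 TPM, with Hba-a1 at 221 ± 4.18 TPM and a summed level of 422 TPM in replicate 1 and 456 TPM in replicate 2. Among testis germ cell markers 0 of 5 did, and Prm1, Prm2, Tnp1 and Ldhc were listed at 0 in both libraries. The part of red blood cells in the Hk1-205 share was not tested.

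Aldolase RNA was the most abundant of any step in the first quantification. Aldoa (ENSMUSG00000030695.16, chromosome 7, 126795234 to 126800751, minus strand), the muscle-type aldolase that most tissues use, had 1043 and 1110.4 TPM. Aldoc, the brain aldolase known from astrocytes and Purkinje cells, had 342 and 346 TPM. Aldoa was 3.13 ± 0.114 times Aldoc and held 75.8 ± 0.668% of the step. The second Aldoa identifier (ENSMUSG00000114515.2, chromosome 7, 126800790 to 126809108) had 1.71 and 1.52 TPM and is not in these sums. Astrocyte markers were present in full, 7 of 7, with Slc1a2 at 792 ± 67.5 TPM, a summed level of 1386 TPM in replicate 1 and 1296 TPM in replicate 2. Tpi1, which interconverts the triose phosphates that aldolase makes, had 302 and 329 TPM.

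Gapdh, the dehydrogenase that makes the first high-energy phosphate and a common reference gene, was the gene most dependent on the quantification. It had 3513 and 3879 TPM in the second, against 995 and 1071 TPM in the first. After rescaling the second was 2.08 times the first in replicate 1 and 2.06 times in replicate 2. Gapdh was the only one of the 30 detected genes at least 2-fold apart in both libraries, and 0.988% of 12648 nuclear protein-coding genes were that far apart. Its estimated counts, 28003 and 36580 in the second, were 1.80 and 1.78 times its expected counts of 15567 and 20502.5 in the first. So the tables differed in the reads assigned to Gapdh as well as in the transcripts named.

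The Gapdh transcripts had little in common between the tables. In the first, Gapdh-208, a processed transcript of 483 bases without a coding sequence, held 67.3 ± 0.969% of Gapdh TPM. Gapdh-201, a full coding transcript of 1272 bases, held 31.1 ± 0.658%. The authors' 95% intervals for Gapdh-201, 101 to 255 and 114 to 259 TPM, lay under its values of 314 and 328 TPM. Those of the coding Gapdh-202, listed at 0.15 and 0.14 TPM, ran from 41.9 to 191 and from 66.7 to 210 TPM. The split between Gapdh-201 and Gapdh-202 was thus uncertain in the first. In the second Gapdh-208 and Gapdh-201 were listed at 0. There Gapdh-207 held 35.2 ± 2.76%, Gapdh-209 31.0 ± 2.30% and Gapdh-203 28.2 ± 0.898%. Of these only Gapdh-203, with 999 coding bases, carries a coding sequence as long as that of Gapdh-201, and the others have 165 and 172. Gapdh also has 90 near-identical copies in the annotation, mostly processed pseudogenes, with at least 95% identity to a Gapdh transcript. They summed to 725 and 790 TPM in the second quantification, where Gm7336 alone had 656 and 688, against 66.2 and 76.4 TPM in the first. Gm7336 aligned to Gapdh over 834 bases with 100% identity, so its level and that of Gapdh are uncertain. Gapdhs, the sperm enzyme of this step, had 0 expected counts in both libraries, under a floor of 3 counts.

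**Figure D2:**
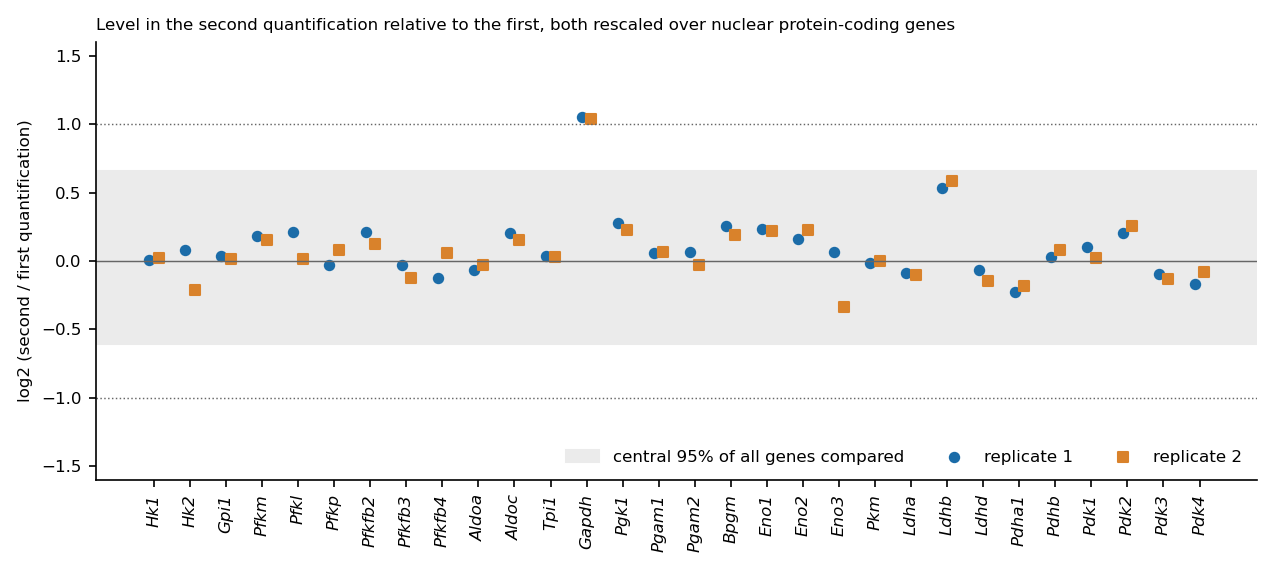
Log2 ratio of the second to the first quantification for the 30 detected genes in replicate 1 (circles) and replicate 2 (squares), each rescaled over nuclear protein-coding genes, with the grey band holding the central 95% of 12648 nuclear protein-coding genes and dotted lines at 2-fold. Gapdh lies above 2-fold in both libraries, Ldhb is the next highest, and the others are nearer to 0.

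The next steps rested on a single gene each. Pgk1 (chromosome X, 106187100 to 106203699), the first ATP-making kinase of the pathway, had 178 and 200.4 TPM, whereas Pgk2, its sperm counterpart, was at 0 counts in both libraries. The 4 near-identical copies of Pgk1 added 1.17 and 0.647 TPM in the second quantification, against 28.8 and 27.0 TPM in the first. Pgam1, the widespread phosphoglycerate mutase, had 216 and 237 TPM and 97.1 ± 0.210% of its step. Pgam2, the mutase of muscle, had 6.73 and 6.65 TPM, beside skeletal muscle markers of which 1 of 6 reached 1 TPM. Bpgm, which makes bisphosphoglycerate in red cells, had 27.3 and 28.7 TPM, beside the globin level given above. The part of blood in the Bpgm level was not tested.

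Enolase RNA was led by the neuronal gene. Eno2 (chromosome 6, 124760053 to 124769673, minus strand), the neuron-specific enolase, had 420.2 and 418 TPM. Eno1, the widespread enolase known in glia, had 179 and 182 TPM. Eno3, the muscle enolase, had 3.39 and 2.92 TPM. By these values Eno2 held 69.6 ± 0.241% of enolase TPM and was 2.32 ± 0.0311 times Eno1, and the second quantification gave 69.2 ± 0.693%.

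The Eno1 level, however, excludes copies that share its reads. Eno1b matched Eno1 at 99.5% identity over 1736 bases and had 145 and 156 TPM. The processed pseudogene Gm4735, at 99.6% over 1302 bases, had 74.7 and 76.1 TPM. The 4 copies of Eno1 summed to 220 and 232 TPM, or 55.1% and 56.1% of Eno1 and copies together. With the copies added, Eno2 had 50.6 ± 0.709% and Eno1 49.0 ± 0.753% of the step, against 56.3 ± 0.262% and 43.3 ± 0.151% in the second quantification. Eno2 remained above Eno1 in all of these sums, and by how much depended on where the shared reads were put.

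Pyruvate kinase RNA came from Pkm (chromosome 9, 59656368 to 59679375), which had 529 and 555 TPM. Pklr, the gene of the liver and red cell enzymes, had 0 counts in replicate 1 and 1 in replicate 2. Pkm RNA holds 1 of 2 exons of equal length, which give the M1 enzyme, constantly active and known from muscle and neurons, or the M2 enzyme, controlled by fructose bisphosphate and known from embryonic, dividing and glial cells. The exons are shown because they are the whole coding difference between the forms. Each is exon 9 of the 11 exons of its transcript, Pkm-202 for M1 and Pkm-201 for M2. They have 167 bases, of which 103 are identical, or 61.7%. Capitals mark the 64 positions at which the exons differ. They are on the plus strand of mm10 at chr9:59675029-59675195 and chr9:59675568-59675734, and were read from the GENCODE M21 transcripts.
M1 exon: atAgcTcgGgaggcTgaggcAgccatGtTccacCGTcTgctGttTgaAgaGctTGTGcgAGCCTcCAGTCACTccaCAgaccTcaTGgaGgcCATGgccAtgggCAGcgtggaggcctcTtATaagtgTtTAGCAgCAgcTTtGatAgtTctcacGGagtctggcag
M2 exon: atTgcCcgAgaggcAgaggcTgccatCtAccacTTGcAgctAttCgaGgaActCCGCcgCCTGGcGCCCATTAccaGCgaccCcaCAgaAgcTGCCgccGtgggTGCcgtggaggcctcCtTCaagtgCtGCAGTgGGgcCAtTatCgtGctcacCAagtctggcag

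Both the M1 and the M2 form were assigned RNA, and which was higher was not settled. In the first quantification transcripts with the M1 exon held 51.5% of Pkm TPM in replicate 1 and 54.9% in replicate 2, and those with the M2 exon 46.2% and 43.2%. In the second quantification M1 held 42.1% and 43.7%, and M2 47.2% and 44.2%. M1 minus M2 was thus 5.29 and 11.6 percentage points in the first and -5.11 and -0.508 in the second. By expected counts of the first, M1 held 47.4% in replicate 1 and 50.9% in replicate 2, with M2 at 51.6% and 48.3%. The lower limits of the 95% Clopper-Pearson intervals of the M1 shares were 46.8% and 50.3%, for counting error only. By the estimated counts of the second, M1 held 40.4% in replicate 1 and 43.0% in replicate 2, with M2 at 56.8% and 54.0%. There M1 minus M2 was -16.4 and -10.9 percentage points, the widest difference of the measures compared. Transcripts of both forms were therefore assigned a large share of Pkm RNA in each library and table. The sign of their difference in TPM changed with the table. Reads on the exons themselves were not counted. Counts are not corrected for length, and Pkm-201, of the M2 form, has 2432 bases against 2041 in Pkm-202. The count shares thus favour M2 and are not a like measure to the TPM shares.

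The remainder lay in Pkm transcripts with neither exon. They held 2.09 ± 0.245% in the first quantification and 11.5 ± 0.987% in the second, where Pkm-206, a coding transcript of 725 bases, had 10.4 ± 1.09%. Outside its own exon 9, Pkm-201 has 391 bases that Pkm-202 lacks, 205 at the 5′ end and 186 at the 3′ end, and Pkm-202 has none of its own. Reads on these bases can count for M2 without touching the exon, and what they contributed was not tested. The authors' 95% interval ran from 253 to 267.7 TPM for Pkm-202 in replicate 1 and from 289 to 302.6 in replicate 2. For Pkm-201 it ran from 232 to 243.7 and from 229 to 240.1 TPM. The deposited values of Pkm-202, 268.35 and 302.73 TPM, and of Pkm-201 in replicate 1, 244.51 TPM, lay just above these intervals. Of 7 listed regulators of this exon choice, known mainly from human cells, all 7 reached 1 TPM. Hnrnpa2b1 had 213 and 180.2 TPM, Hnrnpa1 104 and 103, and Srsf3 55.9 and 50.7. Ptbp2, the neuronal polypyrimidine tract protein, had 50.6 ± 0.976 TPM, and Ptbp1, its counterpart in dividing and glial cells, had 24.4 and 17.9.

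**Figure D3:**
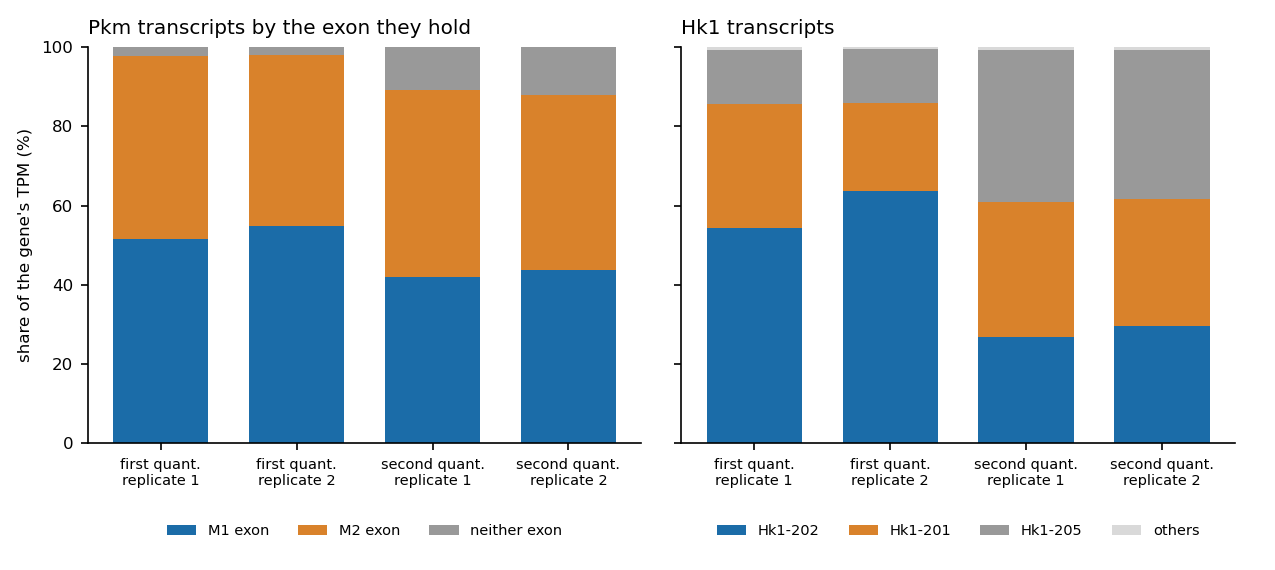
Share of a gene's TPM, in percent, held by Pkm transcripts with the M1 exon, the M2 exon or neither (left) and by the main Hk1 transcripts (right), in each library of the first and the second quantification. In Pkm the M1 part is above the M2 part in both libraries of the first quantification and below it in both of the second, and in Hk1 the Hk1-202 part is the largest in the first quantification and the smallest of the 3 in the second.

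Lactate dehydrogenase RNA was led by the heart-type subunit. Ldhb, whose tetramer favours the use of lactate and is known from neurons, had 221 and 229 TPM. Ldha, whose tetramer favours the making of lactate, had 130.4 and 141 TPM. Ldhb was 2.62 and 2.61 times Ldha in the second quantification, against 1.70 and 1.62 times in the first. Ldhb was the gene with the next largest difference between the tables after Gapdh, with a log2 ratio of the second to the first of 0.54 and 0.59 after rescaling, although its counts differed by 1.04 times in each library. In the second table the short transcripts Ldhb-203 and Ldhb-202 held 30.7 ± 0.226% and 29.2 ± 0.397% of Ldhb TPM, against 0.255% and 17.1 ± 3.46% in the first. Ldhb had 62.4 ± 0.732% of the summed TPM of both, 72.3 ± 0.0539% in the second quantification and 54.4 ± 0.0523% of expected counts, so it led by each measure. Ldhd, the mitochondrial enzyme for D-lactate, had 2.69 TPM in both libraries and lies across Znrf1 on the other strand, a gene of higher level.

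At the entry to the citric acid cycle, the subunits of the first component of pyruvate dehydrogenase were near each other. Pdha1, the X-linked alpha subunit that the kinases phosphorylate, had 93.1 and 96.7 TPM. Pdhb, the beta subunit, had 81.2 and 82.0 TPM. Pdha1 was 1.15 and 1.18 times Pdhb in the first quantification and 0.957 and 0.979 times in the second, so their order was not settled. The complex needs both subunits in equal number.

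Among the pyruvate dehydrogenase kinases, which switch the complex off, Pdk2, the widespread form, had 46.7 and 47.8 TPM. It held 56.0 ± 0.628% of kinase TPM, or 60.5 ± 1.66% in the second quantification. Pdk3 had 17.4 and 16.8 TPM and Pdk1, a target of the hypoxia response, 14.9 and 14.4 TPM. The authors' intervals of Pdk3 and Pdk1 overlapped in both libraries, and the ratio of Pdk3 to Pdk1 was 1.16 in each. Pdk4, the kinase known to rise with fasting, had 5.06 and 5.71 TPM. Pdk2 was thus the only kinase clearly apart at the top, by 2.77 ± 0.118 times over Pdk3.

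For most pairs of genes the order within a step met 3 conditions. Of 19 neighbouring pairs within a step, 15 were apart by more than the sum of their SDs, had authors' intervals that did not overlap in either library, and kept their order in both libraries of the second quantification. The exceptions were Pfkl and Pfkp, Pfkfb2 and Pfkfb3, Pdha1 and Pdhb, and Pdk3 and Pdk1. The 15 include Gapdh and Gapdhs, Pgk1 and Pgk2, and Pkm and Pklr, where the lower gene had 0 or 1 expected counts per library. They also include Eno2 and Eno1, which were compared there without the Eno1 copies. With the copies added these had 50.1% and 49.6% of the step in replicate 2 of the first quantification. The authors' intervals do not always hold the deposited TPM. For Aldoa, at 1043 and 1110.4 TPM, their upper limits were 1028 and 1098 TPM. The leading isozyme was the same gene in both quantifications in all 11 steps that have several isozymes. By expected counts, which favour long transcripts, and by protein-coding transcripts alone it was the same in 10, Pfkfb2 being the one that lost its place. The coding sequences of these isozymes are 64.1% to 79.3% identical within a step, the highest for Pgk1 and Pgk2.

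**Figure D4:**
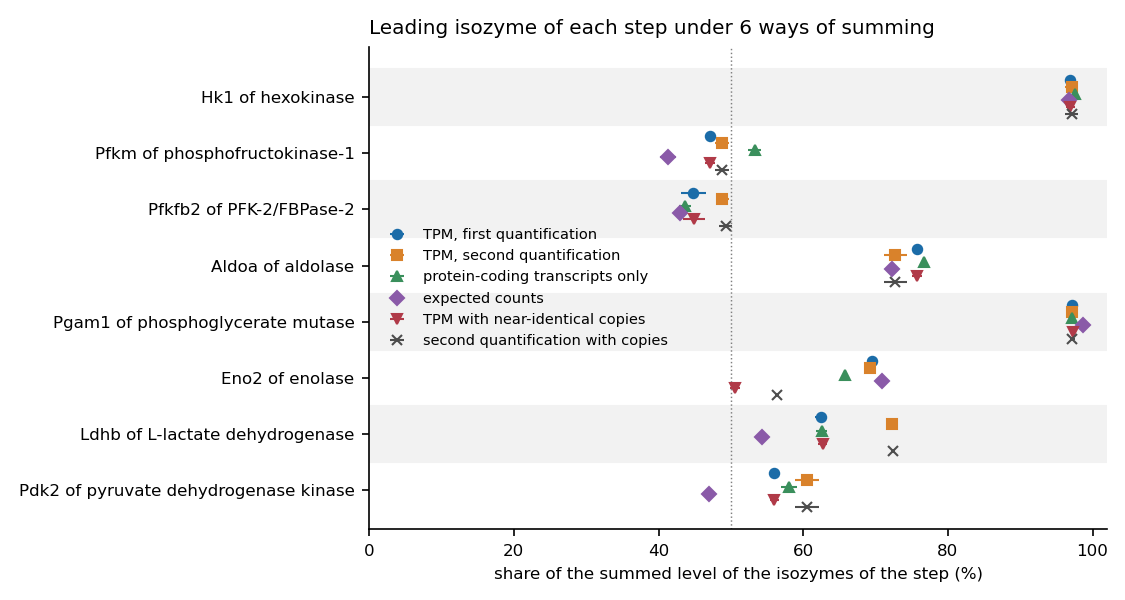
Share of the leading isozyme in the summed level of its step, in percent, as mean and SD over 2 libraries, for TPM in both quantifications, for protein-coding transcripts, for expected counts, and with near-identical copies added. Hk1 and Pgam1 stay above 96% in all 6, Eno2 drops to 50.6% with copies, Ldhb spans 54.4% to 72.5%, and the dotted line marks 50%.

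Most of this RNA was assigned to coding transcripts. The median over the 30 detected genes was 95.5% of TPM in protein-coding transcripts, and 94.8% in the second quantification. The lowest was Gapdh at 31.9 ± 0.893% in the first and 99.2% in the second. Pfkfb4 had 47.1 ± 23.2% and Gpi1 49.1 ± 13.6%. In Gpi1 the coding Gpi1-201 held 46.0 ± 9.27%, while Gpi1-207 and Gpi1-206, classed as targets of nonsense-mediated decay, held 14.5 ± 5.73% and 11.3 ± 2.39%, and Gpi1-211, with a retained intron, 13.9 ± 5.01%. The second quantification put 36.1% of Gpi1 TPM in coding transcripts, so a large noncoding part was seen in both.

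The leading transcript was less certain than the gene level. It was the same in both quantifications for 21 of the 30 genes and in both libraries for 28. Where it differed, related coding transcripts often changed places. Aldoa-201 held 87.1 ± 2.84% in the first, and in the second Aldoa-202 had 45.6 ± 4.65% and Aldoa-201 43.1%. Ldha-202 held 97.2 ± 0.841% in the first, and in the second Ldha-201 had 54.3 ± 0.734% and Ldha-202 39.5%. Pgk1-201, Pgam1-201, Eno1-202, Pdha1-201 and Pdk3-201 held over 80% in both.

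Genes around the pathway were read from lists, with levels of the first quantification unless the second is named. The share to set beside each count of detected genes is 57.6%, that of all nuclear protein-coding genes. Of 10 glucose transporters 7 reached 1 TPM, led by the neuronal Slc2a3 at 46.2 ± 2.85 TPM, Slc2a1, the transporter of the blood-brain barrier and astrocytes, at 39.3 ± 0.898, and Slc2a13, a carrier of inositol, at 28.2 ± 1.04. In the second quantification Slc2a1 had 89.9 and 85.9 TPM and Slc2a3 77.2 and 87.1, so their order differed between the libraries. Of 6 genes of monocarboxylate transport 4 did so, led by Bsg, the chaperone of the lactate carriers, at 269 ± 2.18. The neuronal lactate carrier Slc16a7 had 18.7 ± 2.16 and the more widespread Slc16a1 12.3 ± 1.00 TPM. Slc16a3, the carrier known from lactate-exporting astrocytes, had 0.96 and 0.89 TPM, under 1 in both libraries. The lactate receptor gene Hcar1 had 0.20 and 0.30 TPM.

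Downstream, 8 of 10 genes of mitochondrial pyruvate entry and the rest of the dehydrogenase complex were detected, led by Mpc1 at 63.8 ± 0.962 TPM, Dlat at 57.2 ± 0.163 and Mpc2 at 54.1 ± 1.77. The malate-aspartate and glycerol phosphate shuttles return NADH electrons to mitochondria. Of 11 genes listed for them 10 were detected, led by Mdh1 at 277 ± 8.30 and Mdh2 at 170.2 ± 3.89. The list also held Slc25a22, a mitochondrial glutamate carrier rather than a part of these shuttles, at 150.2 ± 8.51, above Got1 at 129.8 ± 2.48. All 7 pentose phosphate genes were detected, led by Tkt at 70.7 ± 4.30, Taldo1 at 59.9 ± 3.52 and Pgls at 16.4 ± 0.870. Among the 10 genes of pyruvate entry and the complex, Mpc1l had no match by symbol.

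Storage and synthesis of glucose were uneven. Of 14 genes listed for glycogen 13 were detected. The highest, Pgm2l1 at 118 and 109 TPM, is known as a glucose bisphosphate synthase rather than an enzyme of glycogen itself. Next were the brain phosphorylase Pygb at 82.8 ± 0.594 and Pgm1 at 24.8 ± 2.71. Of 7 gluconeogenesis genes 3 were detected, led by Pcx at 27.9 ± 1.05, G6pc3 at 23.2 ± 0.615 and Pck2 at 16.1 ± 1.02. Fbp1, G6pc and Pck1, enzymes of glucose output in liver and kidney, were each under 0.2 TPM, beside liver markers of which 0 of 3 were detected. Fbp2 was under 0.2 TPM as well. Of 9 further isozymes 3 were, Eno1b, Tigar at 12.1 ± 1.15 and Adpgk at 6.59 ± 0.233. Of 11 hypoxia-response genes 10 were, led by Bnip3 at 46.0 ± 0.997, Egln2 at 41.7 ± 1.85 and Epas1 at 35.1 ± 6.48. In the second quantification Egln2, at 109 ± 2.45 TPM, led before Bnip3, at 53.8 ± 3.24.

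Finally the libraries were compared. Depth was 34919989 expected counts in replicate 1 and 41206890 in replicate 2. Of the 35 genes 29 had at least 200 expected counts over both libraries. None of the 29 was at least 2-fold apart, while 0.825% of 12962 genes were. With 1 library against 1 there is no replicate check and no p-value, and intervals cover counting error only. At 1.5-fold 1 gene, Pfkfb4, was apart, and 3.89% of all genes were.

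The largest differences were in genes of low level. Pfkfb4 had a log2 ratio of replicate 1 to replicate 2 of 0.83 (95% counting interval 0.60 to 1.06), from 297 and 329 expected counts. On TMM-scaled counts its log2 ratio was 0.09. Pfkfb4-204, a retained-intron transcript of 439 bases, had 1.95 TPM in replicate 1 and 0 in replicate 2, while the coding Pfkfb4-203, of 3488 bases, had 1.26 and 2.57 TPM. Hk2, with 358 and 411 expected counts, had 0.44 (0.23 to 0.65) by TPM and 0.03 by TMM-scaled counts. For both genes the TPM ratio thus had no like difference in counts beside it. Pfkfb2 followed at 0.24, and the lowest were Pdk4 at -0.17, Pgk1 at -0.17 (-0.21 to -0.13) and Pgam1 at -0.14 (-0.18 to -0.10).

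The steps from aldolase on lay lower in replicate 1 than those before it. The 9 genes before aldolase had log2 ratios from 0.01 to 0.83 with a median of 0.13, and the 20 from aldolase on had ratios from -0.17 to 0.05 with a median of -0.05. The median of all 12962 genes was 0.07. None of the 20 was above it, and 6 of the 9 were, or 4 of the 9 on TMM-scaled counts, with DESeq2 size factors and by spike-in scaling. On TMM-scaled counts the median of the 9 was -0.03 and that of all genes -0.02, so there the genes before aldolase did not lie above the median gene. The direction itself turned with the scaling, since 4 of the 20 were higher in replicate 1 by TPM, 0 on TMM-scaled counts and 17 by spike-in scaling. Of the genes from aldolase on, 0 of the 20 were above the median gene by TPM, 0 on scaled counts and 2 in the second quantification. TMM, DESeq2 and spike-in scaling each shift all genes alike. Their agreement on positions relative to the median gene, for the 9 as for the 20, was therefore fixed in advance. This division of the pathway was chosen after the values were seen and carries no test. Excitatory neuron markers, 4 of 4 detected, summed to 3072 TPM in replicate 1 and 2741 in replicate 2. Choroid plexus markers, of which Ttr was the 1 of 4 detected, summed to 24.1 and 56.9 TPM. The part of tissue composition in these ratios was not tested.

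**Figure D5:**
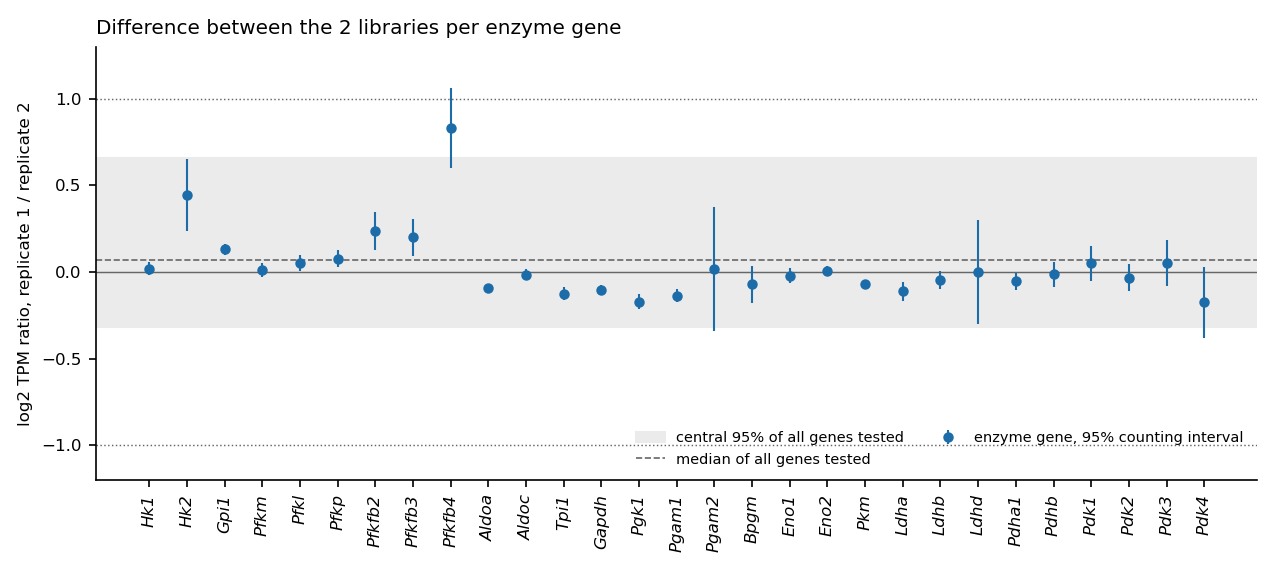
Log2 TPM ratio of replicate 1 to replicate 2 for the 29 genes with at least 200 expected counts, in pathway order, with 95% counting intervals, the median of all 12962 genes (dashed), their central 95% (grey) and 2-fold lines (dotted). Pfkfb4 stands above the band, Hk2 is next, and the genes from Aldoa on lie below the dashed line.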

How the data were processed

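The study measured ribosomal-RNA-reduced, stranded total RNA of mouse hippocampus, per the labels, in 2 libraries of 1 group. Genes are those of GENCODE M21 (per the deposited notes) on mm10 (per the labels). Which aligner was run is not given in the sources used here. The authors deposited expected counts and TPM per gene and transcript, with the percent of the gene's TPM per transcript and 95% intervals of TPM, made from transcriptome alignments. Another deposited table, made from reads, gives estimated counts and TPM of transcripts, which were summed per gene as the second quantification. Whether strand entered the counting is not given either, and 17 of the 35 genes overlap a gene on the other strand and 4 one on the same strand.

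The 35 symbols, the lists of related genes and of cell type markers, and the settings were chosen with earlier results of these data known. Genes named with values are the isozymes of each step, the 3 largest log2 ratios in each direction, the largest differences between quantifications and the 3 highest of each list. Some that the rule names have their values in the figures. All 55536 gene identifiers matched the annotation, and Mpc1l had no match by symbol. TPM was used as deposited. Isozyme shares are of the summed TPM of a step. Near-identical copies were found with BLAST+ 2.17.0 (at least 95% identity over at least 200 bases and 50% of the copy). Libraries were compared for genes that had 200 expected counts or more in sum, and the counting interval (95%, exact, Clopper-Pearson) was carried over to the ratio of TPM. Alternatives were the second quantification, protein-coding transcripts, counts, copies, TMM (edgeR 4.0.16), DESeq2 1.42.0 size factors, spike-in scaling and each replicate alone. The libraries had 34919989 and 41206890 expected counts, and spike-ins took 0.376% and 0.429%. The ratio rule was tested on simulated data. Other work used R 4.3.3, Biopython 1.88, scipy 1.17.1, pandas 2.3.3, matplotlib 3.10.9, numpy 2.4.6 and Python 3.11.15.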

Additional observations from a re-analysis of the deposited data

How the results depend on the processing

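No paired analysis was possible because there is a single group. The leading isozyme was the same in 11 of 11 steps with single replicates, in the second quantification and with copies added, and in 10 of 11 by protein-coding transcripts and by expected counts, while shares moved (Eno2 had 50.6% with copies, against 69.6%, and Ldhb 72.3% in the second quantification, against 62.4%). The number of detected genes was 26 to 32 over thresholds of 5 and 0.1 TPM, against 30, and the median coding share 94.1% and 96.2% for single replicates, against 95.5%. The share of the 35 genes in nuclear protein-coding TPM was 1.36%, against 1.68% in the second quantification, 1.44% with near-identical copies and 0.578% over all rows of the table. Pkm M1 minus M2 was 8.47 percentage points, from 5.29 to 11.6 with a replicate left out, and reversed to -2.81 in the second quantification. It was -0.83 by expected counts and -13.7 by estimated counts of the second, which are not corrected for transcript length. The number of genes at least 2-fold apart between libraries was 0 of 29, but 1 of 32 with a minimum of 20 counts and 1 of 32 with none. At 1.5-fold it was 1 of 29. Over all genes tested the shares at these settings were 0.825%, 6.35%, 9.90% and 3.89%, in that order. The median log2 ratio of the genes was -0.01, against -0.13 with TMM, -0.13 with DESeq2 size factors and 0.0695 with spike-in scaling. The second quantification with copies added, its counts for the Pkm forms, and all rows as denominator, were chosen after seeing the data. The cause of these shifts was not tested. Those of the 35 genes under 1 TPM rest on 35 expected counts or fewer per library, and the SD of 2 libraries is itself imprecise.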
